A study of Mus musculus with 9 samples.

Results

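The 8 genes described here encode the enzymes that make polyamines, the enzyme that removes them and the proteins that control their synthesis. They were taken by symbol from the 55487 genes listed for mouse splenic CD4+ T cells: Odc1, Amd1, Srm and Sms for synthesis, Sat1 for catabolism, Oaz1 and Oaz2 for the antizymes, and Azin1 for the antizyme inhibitor. All 8 exceeded 17 TPM (a measure of abundance corrected for gene length, scaled so that each library has the same total) in every library. RNA was sequenced from T cells of C57BL/6 wild type (Trail-r+/+) female mice, whose age is not in the sample labels, in 3 groups of 3 libraries. The medium group received no Abs, and its culture time is not given. The stimulated group was given Abs for 24 h, against CD3 of the TCR complex at 3 µg/ml and against the costimulatory receptor CD28 at 2 µg/ml. The TRAIL-treated group received the same Abs over the same 24 h with 10 µg/ml of TRAIL, a death ligand related to tumor necrosis factor. The T cells were enriched by negative selection from whole spleen, and the labels do not state whether each library came from a separate animal, so the p-values measure the spread between these libraries, which may be technical.

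Polyamines (putrescine, spermidine and spermine) are small, positively charged molecules that bind nucleic acids and are needed for proliferation. Ornithine decarboxylase makes putrescine from ornithine, and spermidine synthase and spermine synthase then add aminopropyl groups that come from S-adenosylmethionine after its decarboxylation. Antizymes bind ornithine decarboxylase and deliver it to the proteasome, whereas the antizyme inhibitor, a relative of the enzyme without its activity, binds the antizyme instead. Spermidine is also the donor for hypusine, a modified lysine found in translation factor eIF5A. Resting T cells hold little polyamine synthesis, and TCR stimulation is known to induce it.

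The study asked what TRAIL does to the transcripts of stimulated T cells, and the 3 comparisons between the groups were made here for each gene. Differences were tested with limma on log2(TPM + 1) for the 15536 genes that reached 1 TPM in 3 or more libraries, and p-values were adjusted over all of them with the Benjamini-Hochberg method. A gene is said to have risen or fallen where its adjusted p was under 0.05, and to have been called changed where its log2 fold change was also at least 1 in size. Stimulation moved much of the transcriptome, with 31.9% of tested genes called changed against medium. TRAIL-treated cells differed from stimulated cells in 30.9% of genes and from medium in 4.62%. The stimulated libraries enter the first and the second comparison, the medium libraries the first and the third, and the TRAIL-treated libraries the second and the third, so the comparisons are not independent of each other.

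The 10 markers of CD4 T cells summed to 3651 to 3976 TPM in medium, 3137 to 3461 TPM after stimulation and 3405 to 3840 TPM with TRAIL. Of these 10, 1 was called higher and 2 lower with stimulation, beside 12.4% and 19.5% of all tested genes. Cd4 itself stood at 355 to 435, 170 to 246 and 333 to 423 TPM in the same order of groups. Markers of other spleen cells were present as well and differed between the groups. The 13 myeloid markers summed to 2175 to 2424 TPM in medium, 66.5 to 80.1 TPM after stimulation and 1593 to 1829 TPM with TRAIL. The 10 B cell markers summed to 2404 to 2514, 198 to 219 and 997 to 1132 TPM in the same order, the 7 erythroid markers to 2137 to 2585, 24.8 to 39.6 and 619 to 669 TPM, and the 6 markers of CD8 T or NK cells to 252 to 302, 124 to 130 and 96.2 to 105 TPM. Of the last 6, 4 were called lower with stimulation, whereas Cd8a stood at 37.9 to 40.6, 41.7 to 47.8 and 12.4 to 16.6 TPM. No marker was at or below 0.0001 TPM, the most frequent value of the table, in a medium or TRAIL-treated library, and 3 erythroid markers were there in at least 1 stimulated library. In bulk RNA, fewer cells of a type and less RNA per cell cannot be told apart. Deposited TPM values carry no library depth, and another scaling shifted the median difference of all genes by 0.17 (median of ratios) or 0.19 (quantile) for stimulated against medium and by 0.15 or 0.14 for TRAIL-treated against medium (log2). The called genes then split differently: 1926 higher and 3033 lower became 2416 and 2526 (median of ratios) or 2434 and 2240 (quantile) for stimulated against medium, and 387 higher and 331 lower became 514 and 190 or 526 and 219 for TRAIL-treated against medium.

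Stimulation raised 7 of the 8 polyamine genes and lowered Sat1. All 8 passed the filter on low values, 4 were called changed, and none of the 8 overlapped between the groups. Odc1 (4.83-fold), Srm (5.99-fold) and Amd1 (2.03-fold, ratios of mean TPM) were called higher and Sat1, at 0.404 of its medium level, was called lower, in a comparison that called 12.4% of all tested genes higher and 19.5% lower. The rise of Sms, Oaz1, Oaz2 and Azin1 stayed between 0.27 and 0.46 on the log2 scale. The background is high in this comparison, with 68.7% of all tested genes at an adjusted p under 0.05 (28.8% higher and 40.0% lower) and 72.6% without overlap between the libraries. The median log2 fold change of the 8 genes was 0.45, beside -0.15 over all genes tested.

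TRAIL did not move the 8 genes in one direction relative to stimulated cells. Srm fell to 0.106 of its stimulated level and Sat1 rose 2.85-fold, and these were the 2 genes called changed (14.3% of all genes were called lower and 16.6% higher). Odc1, Sms and Oaz2 fell by less than 2-fold, and Amd1 rose by less than 2-fold. Oaz1 and Azin1 did not pass the test, although the libraries of all 8 genes stood apart. In this comparison 67.1% of all genes had an adjusted p under 0.05, with 33.5% higher and 33.5% lower, and 70.4% showed no overlap. Against medium, Odc1 and Amd1 were called higher in TRAIL-treated cells, as were 2.49% of all genes, Azin1 rose, and Srm fell to 0.636 of its medium level, while Sms, Sat1, Oaz1 and Oaz2 did not pass the test and their libraries overlapped. Of all genes, 32.6% had an adjusted p under 0.05 in that comparison (8.03% higher and 24.6% lower), and 50.6% showed no overlap. The median log2 fold change of the 8 genes was -0.39 against stimulated cells and 0.16 against medium, beside 0.011 and -0.18 over all genes.

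**Figure D1:**
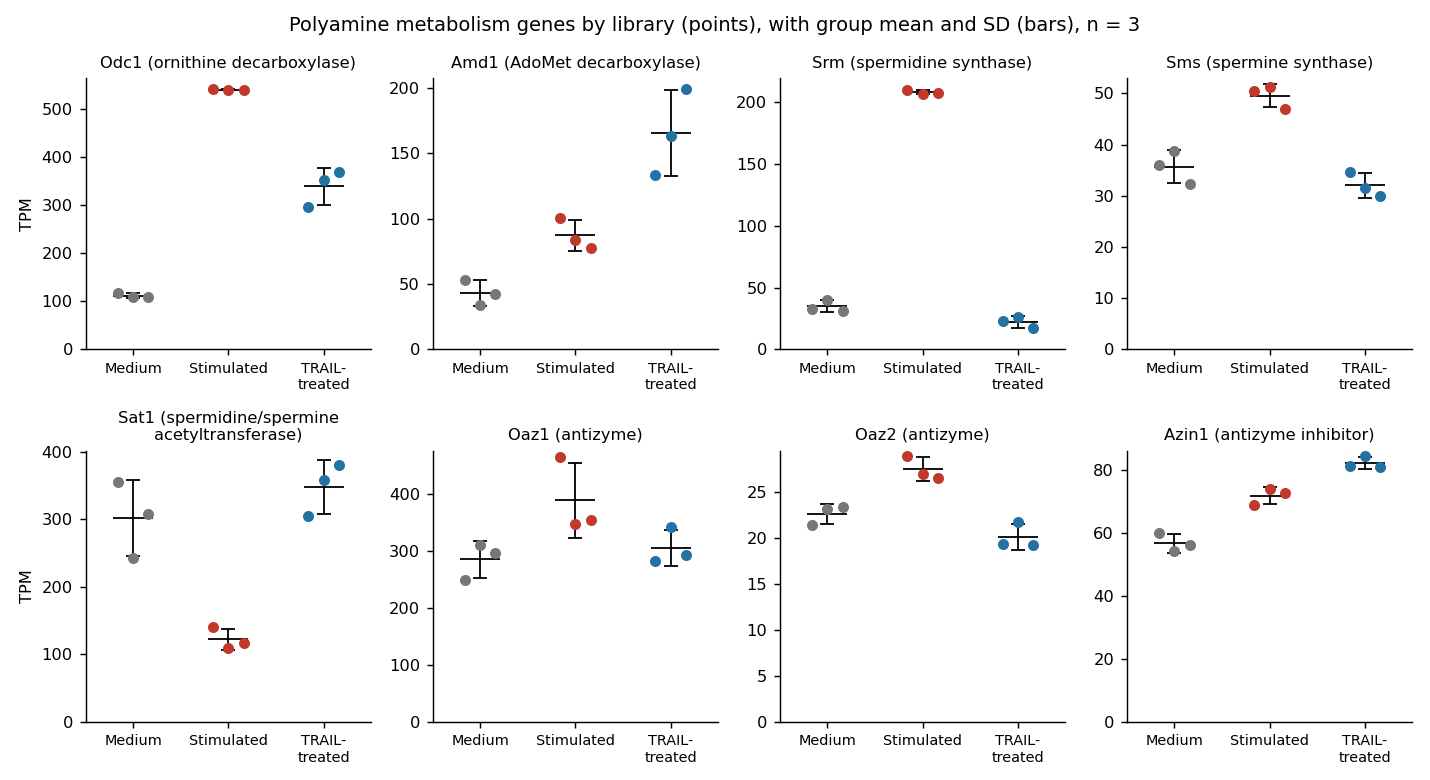
TPM of the 8 polyamine genes in each library (points; medium gray, stimulated red, TRAIL-treated blue), with the group mean and SD (black bars, n = 3), on axes that start at 0. Odc1 and Srm peak in stimulated cells, Sat1 is lowest there, and Amd1 is highest in the TRAIL-treated libraries at 134 to 199 TPM.

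**Figure D2:**
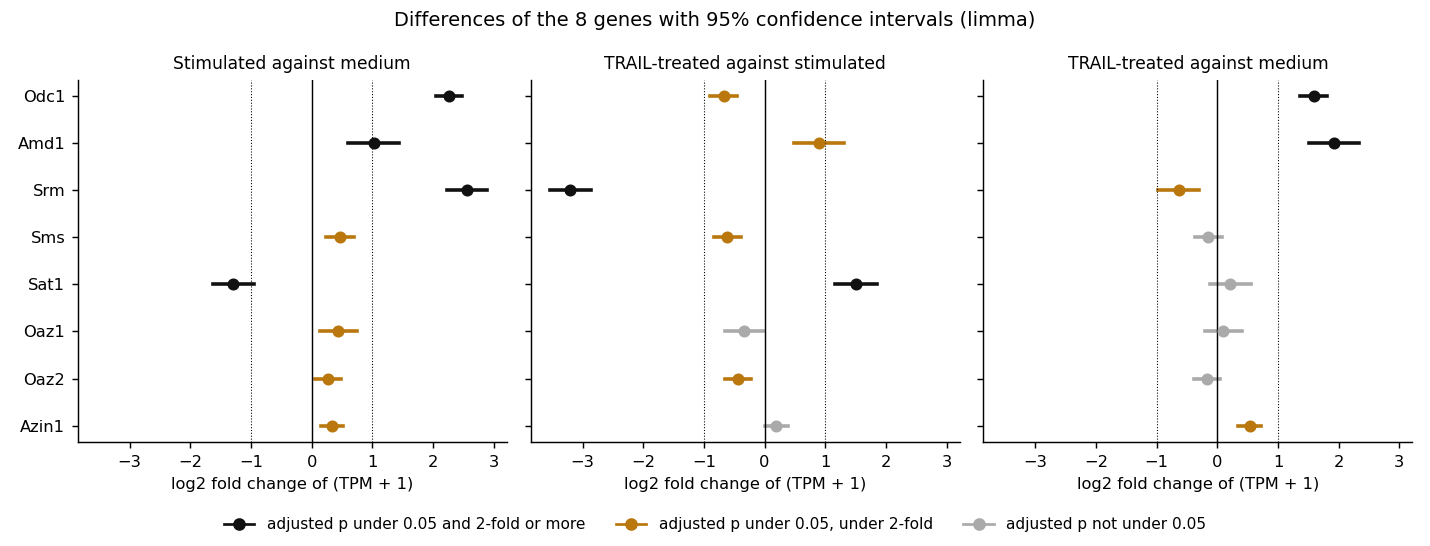
log2 fold change of TPM + 1 for each gene in the 3 comparisons, with 95% confidence intervals from limma; dotted lines mark a 2-fold change, and the color gives the outcome of the test. Srm changes from 2.56 to -3.20 between the first and second panels, while Odc1 and Amd1 stay above 1 in the third.

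Odc1 encodes ornithine decarboxylase, the first enzyme of the pathway (ENSMUSG00000011179, GRCm38 chr12:17544794-17551505, plus strand). It stood at 117, 109 and 109 TPM in the medium libraries, 541, 540 and 538 TPM after stimulation and 296, 351 and 369 TPM with TRAIL. The 3 groups did not overlap, and the TRAIL-treated libraries lay between the other two. Stimulation raised Odc1 by 2.26 ± 0.10 (log2 fold change ± SE; limma adjusted p = 1.7e-08). Relative to stimulated cells it fell by 0.68 ± 0.10 with TRAIL (limma adjusted p = 1.3e-04), and TRAIL-treated cells were higher than medium by 1.59 ± 0.10 (limma adjusted p = 3.5e-06). Among tested genes ordered by TPM, Odc1 ranked between 1369 and 1581 in medium, 253 and 256 after stimulation and 349 and 467 with TRAIL. The 3 genes with the most similar pattern were Got1 (r = 0.996), Cxcl10 (r = 0.995) and Slc16a1 (r = 0.994), by Pearson's r of log2(TPM + 1) over the 9 libraries among the 10456 genes whose mean reached 10 TPM. These r values describe libraries that fall into 3 groups and carry no test.

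Srm encodes spermidine synthase (ENSMUSG00000006442, chr4:148591503-148594993, plus strand). Its levels were 32.9, 40.2 and 31.0 TPM in medium, 210, 206 and 208 TPM after stimulation, and 23.1, 26.1 and 17.1 TPM with TRAIL. The stimulated libraries were far above all others, and every TRAIL-treated library was below every medium library. Srm rose by 2.56 ± 0.15 with stimulation (limma adjusted p = 1.7e-07) and fell by 3.20 ± 0.15 from stimulated to TRAIL-treated cells (limma adjusted p = 4.0e-08). The difference between TRAIL-treated cells and medium was -0.64 ± 0.15 (limma adjusted p = 0.010), and it ran from -0.77 to -0.48 over the 19 alternatives, with an adjusted p of at most 0.035. The genes with the most similar pattern were Gadd45gip1, Nus1 and Ifrd2 (each r = 0.999, 9 libraries). With TRAIL, the mean level of Odc1 was 0.628 and that of Srm 0.106 of the stimulated mean.

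Amd1 encodes S-adenosylmethionine decarboxylase, which provides the aminopropyl donor for both synthases (ENSMUSG00000075232, chr10:40287458-40302188, minus strand). Medium libraries held 53.1, 33.8 and 42.5 TPM, stimulated libraries 101, 84.1 and 77.7 TPM, and TRAIL-treated libraries 134, 163 and 199 TPM. The groups did not overlap, and the order was medium, stimulated, TRAIL-treated. The log2 fold change was 1.02 ± 0.19 with stimulation (limma adjusted p = 7.1e-04), 0.90 ± 0.19 for TRAIL-treated against stimulated cells (limma adjusted p = 1.6e-03) and 1.92 ± 0.19 for TRAIL-treated cells against medium (limma adjusted p = 7.6e-05). The first difference lies close to the 2-fold limit: it fell below it without medium replicate 2 (0.86), without stimulated replicate 1 (0.91), with a pseudocount of 5 (0.95) and with gene copies added (0.84). The second passed the limit without stimulated replicate 1 (1.00), without TRAIL-treated replicate 1 (1.04) and after quantile normalization (1.06). The adjusted p of both stayed under 0.05 in all 19 alternatives.

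Part of the reads of Amd1 may be divided among near-identical copies. The coding copy Amd2 matched 99.6% of the aligned transcript, and processed pseudogenes Amd-ps1, Amd-ps3 and Amd-ps4 matched 96.7, 99.9 and 99.5% of theirs. The summed TPM of all listed copies was 41.9 to 74.5% of that of Amd1 in medium, 30.2 to 38.3% after stimulation and 29.2 to 43.5% with TRAIL. Amd2 itself went from 6.96 ± 0.944 TPM in medium to 13.8 ± 1.29 TPM after stimulation and 22.4 ± 3.60 TPM with TRAIL (mean ± SD, n = 3), the same order of groups as Amd1, and was among the 3 genes most similar to it (r = 0.989, after Gm15542 at 0.990 and before Tra2a at 0.983). With the copies added to Amd1, the differences were 0.84, 0.90 and 1.73 in the order given above for Amd1, and each kept an adjusted p under 0.05.

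Sms encodes spermine synthase (ENSMUSG00000071708, chrX:157443855-157492287, minus strand) and moved far less than Srm. It held 36.0, 38.8 and 32.4 TPM in medium, 50.5, 51.2 and 47.0 TPM after stimulation and 34.7, 31.6 and 29.9 TPM with TRAIL. Stimulated libraries were above all others, and medium and TRAIL-treated libraries overlapped. Sms rose by 0.46 ± 0.10 with stimulation (limma adjusted p = 2.2e-03) and fell by 0.62 ± 0.10 from stimulated to TRAIL-treated cells (limma adjusted p = 3.5e-04). Against medium the difference was -0.15, with a 95% interval of -0.38 to 0.08, and it turned to 0.016 (median of ratios) or 0.012 (quantile) under another scaling. The processed pseudogene Sms-ps is identical to the transcript of Sms over its 1101 aligned bases and was listed at 55.1 to 91.7% of the TPM of Sms across libraries, so the level of Sms is uncertain. With Sms-ps added, the difference between TRAIL-treated and stimulated cells was -0.78.

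Sat1 encodes spermidine/spermine N1-acetyltransferase, the rate-limiting enzyme of polyamine catabolism (ENSMUSG00000025283, chrX:155213132-155216449, minus strand). It was the one gene of the 8 that stimulation lowered. Its levels were 355, 243 and 307 TPM in medium, 140, 109 and 117 TPM after stimulation, and 304, 358 and 380 TPM with TRAIL. Stimulated libraries were below all others, and medium and TRAIL-treated libraries overlapped. The log2 fold change was -1.29 ± 0.15 for stimulated cells against medium (limma adjusted p = 3.4e-05), 1.50 ± 0.15 for TRAIL-treated against stimulated cells (limma adjusted p = 1.1e-05) and 0.22 for TRAIL-treated cells against medium, with a 95% interval of -0.13 to 0.56 (limma adjusted p = 0.31). The genes most similar in pattern were Ccdc126 (r = 0.994), Arf2 (r = 0.992) and Zfp874a (r = 0.991, 9 libraries). The myeloid markers moved with Sat1: 13 of 13 were called lower in stimulated cells than in medium, 13 of 13 were called higher in TRAIL-treated than in stimulated cells, and 0 were called changed between TRAIL-treated cells and medium. Of the B cell and erythroid markers, 10 of 10 and 7 of 7 were called lower after stimulation and 9 and 7 higher with TRAIL than without, but 7 of 10 and 7 of 7 were still called lower in TRAIL-treated cells than in medium. Their part in the result was not tested.

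Odc1 and Sat1 moved in opposite directions with stimulation, and their promoters are shown for comparison. The windows run from 250 bases before to 50 bases after the RefSeq gene start (GRCm38.p6), with the letters GGGCGG, or CCGCCC on the other strand, in capitals. Windows were found for 6 of the 8 genes; Srm and Azin1 had none.
Odc1, chr12:17544623-17544922, plus strand: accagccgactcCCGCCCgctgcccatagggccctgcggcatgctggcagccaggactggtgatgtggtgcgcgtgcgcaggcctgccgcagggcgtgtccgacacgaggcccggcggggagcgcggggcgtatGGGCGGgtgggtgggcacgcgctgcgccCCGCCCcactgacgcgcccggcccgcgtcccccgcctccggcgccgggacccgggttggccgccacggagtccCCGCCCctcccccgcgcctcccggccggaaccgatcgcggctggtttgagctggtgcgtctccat
Sat1, chrX:155216400-155216699, minus strand: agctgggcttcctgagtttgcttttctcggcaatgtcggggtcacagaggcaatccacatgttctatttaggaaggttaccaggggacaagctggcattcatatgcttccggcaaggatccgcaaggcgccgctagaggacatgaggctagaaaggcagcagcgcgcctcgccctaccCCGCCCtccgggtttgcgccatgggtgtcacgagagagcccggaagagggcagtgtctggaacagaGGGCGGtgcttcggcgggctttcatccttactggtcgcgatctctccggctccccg
The GC-box letters GGGCGG occur on either strand in 35.7% of the 32851 promoter windows of the table and in those of Odc1 (4 matches), Sat1 (2 matches), Amd1, Oaz2 and Sms. CACGTG, the E-box letters read by Myc among other factors, occur in 7.15% of all windows and among these genes in 1 of the 2 windows of Sms. TATAAA occurs in 13.6% of all windows and in that of Oaz1, and TGACGTCA in 1.79% and in none of the 7 windows. A match describes letters only, and bases outside these windows were not searched for any of the 8 genes. Myc, a transcription factor known to drive Odc1 and Srm, stood at 142 ± 15.1 TPM in medium, 654 ± 59.7 TPM after stimulation and 196 ± 23.1 TPM with TRAIL (n = 3).

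Oaz1 and Oaz2 encode antizymes, whose full-length proteins form only when the ribosome shifts frame by +1 at a stop codon, an event that polyamines promote. A transcript level therefore does not give the amount of antizyme made. The 60 bases around this site are shown because the annotated coding transcripts of both genes cross it. The letters TCCTGAT, which hold the TGA stop codon of the first frame, are in capitals, and the coordinates are those of GRCm38.
Oaz1, chr10:80828272-80828331, plus strand: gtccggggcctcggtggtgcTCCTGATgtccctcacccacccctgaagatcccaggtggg
Oaz2, chr9:65686249-65686308, plus strand: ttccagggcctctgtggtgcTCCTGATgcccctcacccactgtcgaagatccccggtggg
The windows were identical at 51 of 60 positions, 85.0%, including all 7 capital letters. The GENCODE M21 annotation writes the shift as a gap of a single base in 3 coding transcripts of Oaz1 and 2 of Oaz2. The base passed over is the T of the stop codon, at position 80828295 of chromosome 10 and 65686272 of chromosome 9.

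Oaz1 (ENSMUSG00000035242, chr10:80826656-80829290, plus strand) was the more abundant antizyme gene, at 11.7 to 16.1 times the TPM of Oaz2 in every library (12.5 to 18.0 times with the copies of both added). It held 250, 311 and 296 TPM in medium, 466, 349 and 355 TPM after stimulation and 283, 342 and 293 TPM with TRAIL. Stimulated libraries were above the rest, with stimulated replicate 1 well above the other two. Oaz1 rose by 0.44 ± 0.14 with stimulation (limma adjusted p = 0.016), which no longer passed the test without medium replicate 1 (0.35, adjusted p = 0.065) and after quantile normalization (0.28, adjusted p = 0.095). The difference between TRAIL-treated and stimulated cells was -0.34 ± 0.14 (limma adjusted p = 0.0503, just above the threshold). Over the 19 alternatives it ran from -0.42 to -0.20, with an adjusted p of 0.031 to 0.22, and 5 of them passed. Without stimulated replicate 1 it shrank to -0.21 (adjusted p = 0.15), and after quantile normalization to -0.20 (adjusted p = 0.22). Against medium it was 0.10, with a 95% interval of -0.21 to 0.41. The processed pseudogene Oaz1-ps, 99.3% identical over the aligned bases, was listed at 12.1 to 19.8% of the TPM of Oaz1, and with it added the difference between TRAIL-treated and stimulated cells was -0.37 (adjusted p = 0.031).

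Oaz2 (ENSMUSG00000040652, chr9:65668001-65690300, plus strand) held 21.4, 23.1 and 23.4 TPM in medium, 29.0, 27.0 and 26.6 TPM after stimulation and 19.3, 21.8 and 19.2 TPM with TRAIL. Stimulated libraries were again above the rest, and the other groups overlapped. Its rise with stimulation of 0.27 ± 0.10 (limma adjusted p = 0.029) no longer passed the test without medium replicate 1 (adjusted p = 0.090), medium replicate 3 (adjusted p = 0.054) or stimulated replicate 1, 2 or 3 (adjusted p = 0.060, 0.056 and 0.052), with values of 0.23 to 0.29. From stimulated to TRAIL-treated cells Oaz2 fell by 0.43 ± 0.10 (limma adjusted p = 2.4e-03). Against medium the difference was -0.16 with a 95% interval of -0.38 to 0.05, and quantile normalization turned it to 0.028.

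Azin1, the antizyme inhibitor (ENSMUSG00000037458, chr15:38487427-38519266, minus strand), held 60.1, 54.2 and 56.1 TPM in medium, 68.8, 74.0 and 72.9 TPM after stimulation and 81.3, 84.6 and 81.2 TPM with TRAIL. The groups did not overlap and stood in the same order as those of Amd1. Azin1 rose by 0.34 ± 0.08 with stimulation (limma adjusted p = 4.6e-03), and TRAIL-treated cells were above medium by 0.53 ± 0.08 (limma adjusted p = 1.4e-03). The difference of 0.19 ± 0.08 between TRAIL-treated and stimulated cells did not pass the test (limma adjusted p = 0.060), although it did with no filter on low values (adjusted p = 0.024) and after quantile normalization (0.34, adjusted p = 3.4e-03), while the other alternatives gave an adjusted p of up to 0.17. Azin1 and Amd1 were the 2 genes of the 8 with their highest mean TPM in the TRAIL-treated group and their lowest in medium.

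Within each library, TPM values of a pair of genes can be compared per length, and their ratio does not depend on the scaling of the library. The ratio of Odc1 to Oaz1 was 0.396 ± 0.064 in medium, 1.41 ± 0.21 after stimulation and 1.11 ± 0.13 with TRAIL (mean ± SD, n = 3). As listed, Odc1 was below Oaz1 in all 3 medium libraries and above it in the 6 others. With Oaz1-ps added to Oaz1, the ratio was 0.311 to 0.419, 0.991 to 1.30 and 0.897 to 1.05 in the same order, so that Odc1 was then below Oaz1 in 2 of 3 TRAIL-treated libraries and 1 of 3 stimulated libraries. Odc1 to Sat1 was 0.330 to 0.448 in medium, 3.87 to 4.94 after stimulation and 0.970 to 0.979 with TRAIL. The groups did not overlap, and the TRAIL-treated libraries lay between the others. The myeloid markers moved in the same directions as Sat1, and their part in this ratio was not tested. Srm to Sms was 0.913 to 1.04 in medium, 4.03 to 4.42 after stimulation and 0.572 to 0.824 with TRAIL. With Sms-ps added to Sms, it was 0.499 to 0.669, 2.20 to 2.42 and 0.358 to 0.485, and the groups again did not overlap.

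A pair of further ratios was chosen after the values were seen and describes how the synthesis genes separated. Odc1 exceeded Srm by 2.70 to 3.57 times in medium, 2.58 to 2.62 times after stimulation and 12.8 to 21.6 times with TRAIL. Amd1 to Srm was 0.841 to 1.61 in medium, 0.374 to 0.481 after stimulation and 5.79 to 11.7 with TRAIL, and with the copies of Amd1 added 1.24 to 2.40, 0.517 to 0.625 and 8.20 to 15.1. The stimulated libraries had the lowest and the TRAIL-treated libraries the highest values of both ratios. Of the summed TPM of the 8 genes, which was 892 ± 36.7 in medium, 1496 ± 94.7 after stimulation and 1314 ± 121 with TRAIL, Sat1 made up 33.7, 8.13 and 26.4% on average and Srm 3.91, 13.9 and 1.69%.

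**Figure D3:**
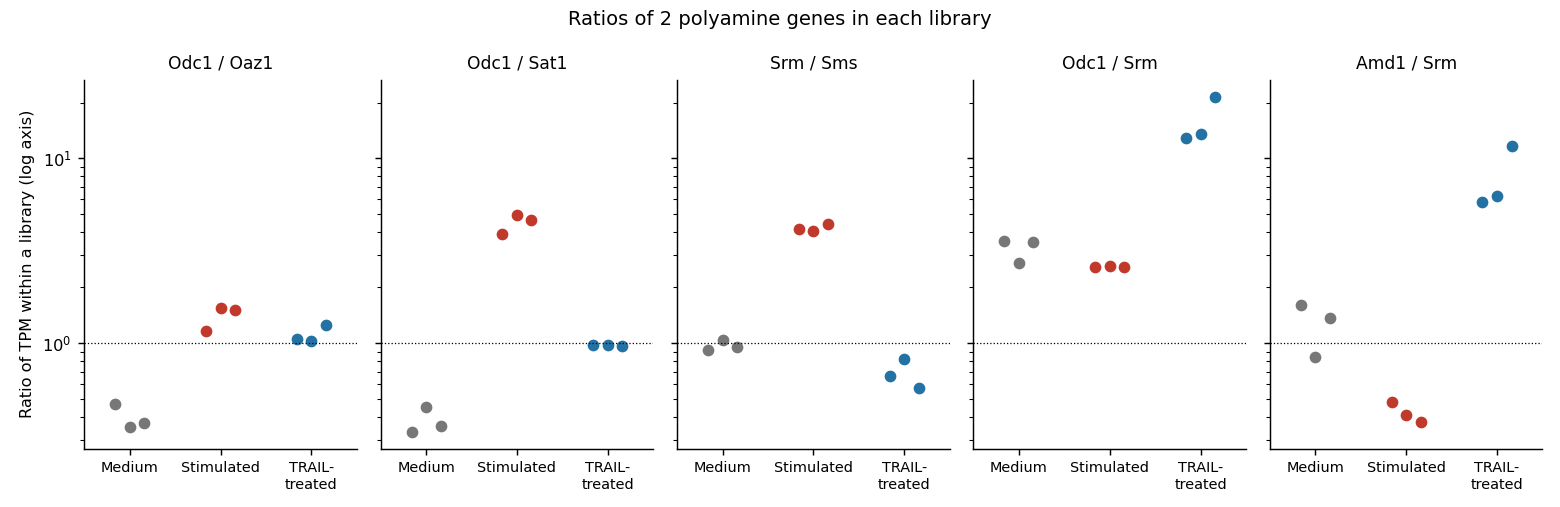
Ratio of the TPM of 2 polyamine genes within each library (points; log axis; the dotted line marks equal TPM). Odc1 to Sat1 reaches 3.87 to 4.94 in the stimulated libraries and stays just below 1 with TRAIL, while Odc1 to Srm is 12.8 to 21.6 in the TRAIL-treated libraries alone.

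A list of 28 linked genes covers the supply of ornithine, arginine and S-adenosylmethionine, the salvage of methylthioadenosine, oxidation and transport of polyamines, hypusine formation and further regulators. Of these, 24 passed the filter, and Oaz3, Sat2, Agmat and Slc18b1 stayed below it. The filter was passed by 2 of the 24, at no more than 1.73 TPM, through the libraries of a single group. With stimulation 7 were called higher and 1 lower, beside 12.4% and 19.5% of all tested genes. Between TRAIL-treated and stimulated cells 8 were called lower and 1 higher (14.3% and 16.6% of all genes). Without these 2 low genes the counts were 6 higher and 1 lower, then 7 lower and 1 higher. With a pseudocount of 5 they were 5 higher and 1 lower, then 5 lower and 1 higher. Between TRAIL-treated cells and medium 2 were called higher and none lower by limma (2.49% and 2.13% of all genes). Without the 2-fold limit, 5 rose and 4 fell, beside 8.03% and 24.6% of all genes, and 3 of the 4 (Atp13a2, Mtap and Mat2b) did not pass the test under either other scaling. The median log2 fold change of the 24 genes was 0.67, -0.50 and -0.11 in the 3 comparisons, and 0.67, -0.50 and -0.14 without the 2 low genes.

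Of the 6 tested genes of ornithine and arginine supply, 4 were called higher with stimulation, beside 12.4% of all tested genes. Likewise 4 were called lower in TRAIL-treated than in stimulated cells, beside 14.3% of all tested genes. Aldh18a1, which makes the precursor of ornithine and proline from glutamate, was at 34.6 ± 5.92 TPM in medium, 167 ± 32.8 TPM after stimulation and 24.5 ± 3.24 TPM with TRAIL. In the same order, the cationic amino acid transporter Slc7a1 was at 24.4 ± 3.14, 116 ± 32.8 and 24.0 ± 3.35 TPM, its relative Slc7a2 at 1.24 ± 0.069, 11.1 ± 1.90 and 1.55 ± 0.274 TPM, and the mitochondrial ornithine carrier Slc25a15 at 5.18 ± 0.412, 12.5 ± 0.715 and 4.94 ± 0.451 TPM (each mean ± SD, n = 3). With a pseudocount of 5, Slc25a15 was under the 2-fold limit in both comparisons (0.78 and -0.82), which left 3 genes called in each. For these 4 genes the difference between TRAIL-treated cells and medium did not pass the test, although that of Aldh18a1 (-0.48) did without stimulated replicate 1 (adjusted p = 0.019) and in a fit of only the 2 groups (adjusted p = 0.036).

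Eif5a, which encodes the protein that receives hypusine, was the most abundant linked gene, at 327, 371 and 356 TPM in medium, 2207, 1999 and 2023 TPM after stimulation and 380, 396 and 362 TPM with TRAIL. It rose by 2.56 ± 0.09 with stimulation (limma adjusted p = 4.6e-09) and fell by 2.45 ± 0.09 from stimulated to TRAIL-treated cells (limma adjusted p = 8.0e-09). Against medium the difference was 0.11, with a 95% interval of -0.09 to 0.31. Slc3a2, the heavy chain shared by several amino acid transporters, held 95.9 ± 11.9, 485 ± 27.1 and 196 ± 8.60 TPM, so that TRAIL-treated cells stayed 1.03 ± 0.10 above medium on the log2 scale (limma adjusted p = 9.9e-05), a value that fell under the 2-fold limit without medium replicate 1 or TRAIL-treated replicate 2. Mtap, which salvages the methylthioadenosine released by both synthases, held 29.9 ± 1.41, 51.3 ± 2.80 and 24.3 ± 1.31 TPM and was called lower in TRAIL-treated than in stimulated cells (-1.04 ± 0.09), a value under the 2-fold limit with a pseudocount of 5 (-0.94) and after quantile normalization (-0.96). Copies of these linked genes were not examined, other than Amd2.

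Atp13a2, a lysosomal polyamine exporter, was the one linked gene called lower after stimulation, and like Sat1 it was lowest in the stimulated libraries. It held 60.3, 75.5 and 63.3 TPM in medium, 17.7, 21.3 and 21.8 TPM after stimulation and 53.0, 53.0 and 44.7 TPM with TRAIL, with no overlap between groups. It fell by 1.66 ± 0.13 on the log2 scale with stimulation (limma adjusted p = 1.1e-06) and was 1.27 ± 0.13 higher with TRAIL than without (limma adjusted p = 8.6e-06). The difference between TRAIL-treated cells and medium was -0.39 ± 0.13 (limma adjusted p = 0.036), and it did not pass the test in 8 of the 19 alternatives, among them median of ratios (-0.23) and quantile scaling (-0.25). The myeloid, B cell and erythroid marker sums given above moved in the same directions, and their part in this difference was not tested.

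**Figure D4:**
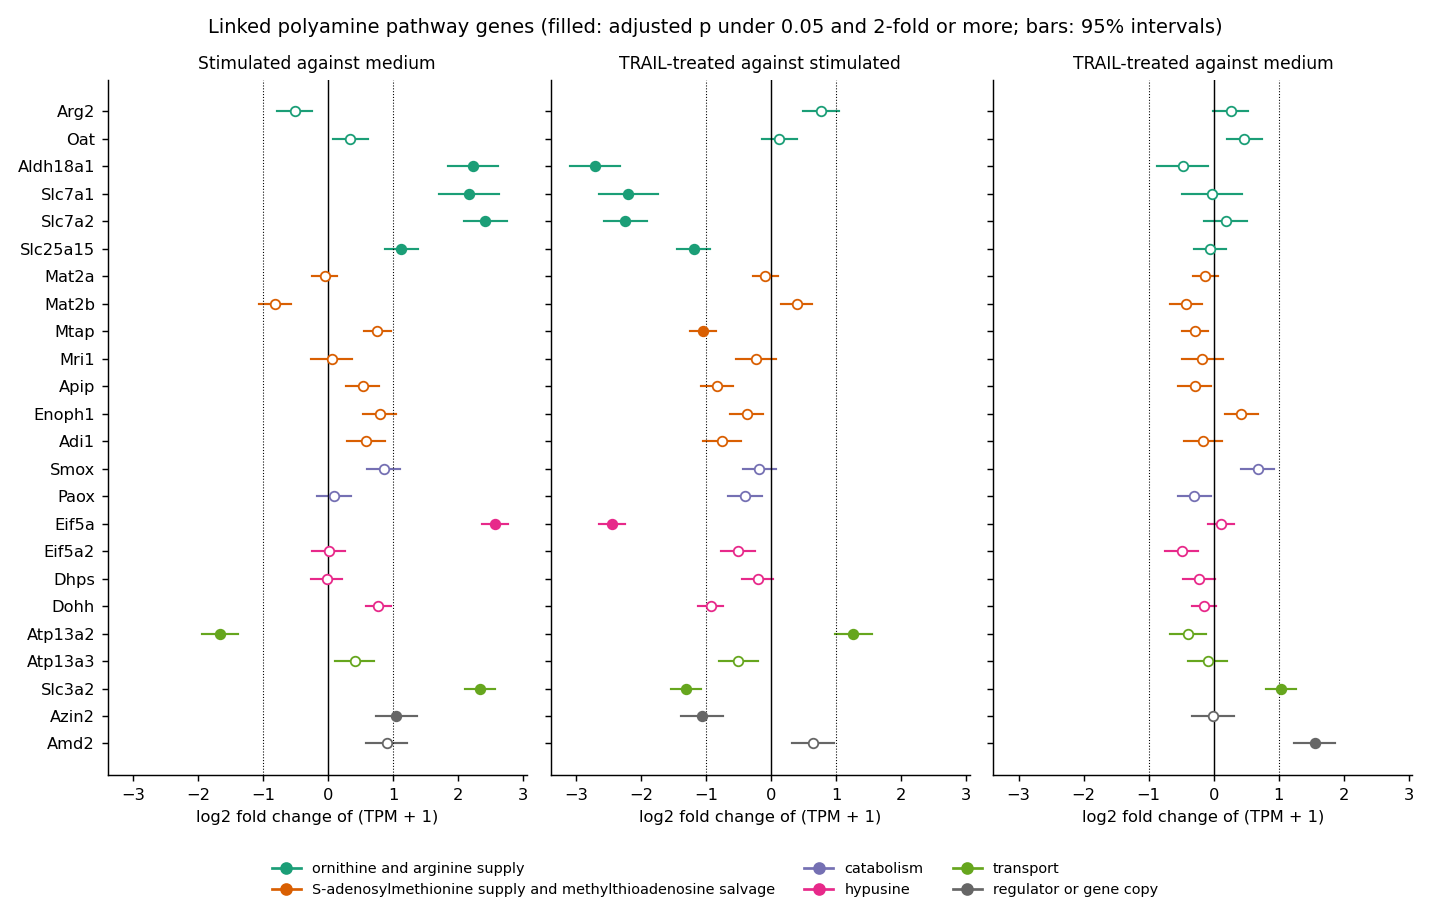
log2 fold change of TPM + 1 for the 24 linked genes that passed the filter, with 95% confidence intervals, colored by their place in the pathway; filled points passed the test and the 2-fold limit. The filled points lie mostly to the right after stimulation (7 of 8, where 12.4% of all genes were called higher and 19.5% lower). With TRAIL against stimulated cells they lie mostly to the left (8 of 9, where 14.3% were called lower and 16.6% higher). Without the 2 low genes that passed the filter through a single group, 6 lie right and 1 left, then 7 left and 1 right. Slc3a2 and Amd2 are the 2 filled points against medium, where 2.49% of all genes were called higher.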

How the data were processed

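For 9 libraries and 55487 genes, the authors deposited TPM values in a single table. According to the methods, mRNA libraries were sequenced paired-end, trimmed with Trimmomatic and aligned to GRCm38 with HISAT2, and feature counts were normalized with a package for count data, although the deposited values are TPM; the submitters' processing notes list Trimmomatic 0.36, HISAT2 2.1.0, SAMtools 1.2 and StringTie 2.1.2. The step that made the TPM values, the annotation release and the strand setting are not given in the sources used here. Depth is unknown, so no counting error is given, and reads of near-identical copies may be divided among them.

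Groups came from the sample titles. The 15536 genes that reached 1 TPM in 3 or more libraries were fitted with limma 3.58.1 in R 4.3.3 (lmFit, eBayes with a trend) on log2(TPM + 1), all 9 libraries in one fit without a replicate block, and fold changes on this scale understate those of low genes. A permutation test of 3 against 3 libraries cannot go below p = 0.10, so none was used. The fit was tested on simulated data. All 8 genes are named; of the linked list, genes are named that were called in a comparison and reached a mean of 10 TPM in a group. Alternatives varied the pseudocount, filter, scaling, variance trend, libraries in the fit, replicate block, fold limit and each library left out; adding gene copies to their parent, in fits and ratios, and leaving out 2 low linked genes were chosen after seeing the data. The values of 1 gene of the linked list are not reported here, and it is not counted. The genes and lists were chosen with earlier results of these data known. Promoter windows are from RefSeq (GRCm38.p6), frameshift windows and transcript copies from GENCODE M21 (GRCm38), compared by local alignment with Biopython 1.88. Protein sequences were not used here. Tables and figures used Python 3.11.15, pandas 2.3.3 and matplotlib 3.10.9.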

Additional observations from a re-analysis of the deposited data

How the results depend on the processing

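Of 456 repeated differences of single genes over the alternatives, 446 kept their direction and whether they were called changed, 7 crossed the 2-fold limit (all Amd1, given above) and 3 changed sign: Sms in TRAIL-treated cells against medium at 0.016 (median of ratios) and 0.012 (quantile), and Oaz2 in the same comparison at 0.028 (quantile), none of which passed the test before or after. Part of this agreement was fixed in advance. A change of the filter, variance trend or replicate block cannot alter a log2 fold change, only its p. The same holds for leaving out all or part of the group not compared, and for adding copies to a gene that has none. Of the 446, 15 crossed the adjusted p of 0.05 alone: Oaz1 in 2 for stimulated cells against medium and in 5 for TRAIL-treated against stimulated cells, Oaz2 in 6 for the former and Azin1 in 2 for the latter. Without the 2-fold limit, 8, 6 and 4 of the 8 genes and 19, 19 and 9 linked genes passed in the comparisons of stimulated cells with medium, TRAIL-treated with stimulated cells and TRAIL-treated cells with medium. Leaving out 1 library left 1 to 2 linked genes called for TRAIL-treated cells against medium, where Slc3a2 was lost without medium replicate 1 and without TRAIL-treated replicate 2, and 1 gene under 10 TPM was lost for stimulated cells against medium without medium replicate 1. Over all genes, 4959, 4800 and 718 calls became 2946, 2883 and 332 with a pseudocount of 5 and 10678, 10420 and 5063 without the fold limit; 718 became 1167 with a pseudocount of 0.1, and 4959 became 3256 with a filter of 10 TPM. With the replicate number as a block the counts were 4960, 4802 and 714 over all genes and 4, 2 and 2 among the 8, and the linked counts stayed at 8, 9 and 2, while Oaz2 in stimulated cells against medium no longer passed (adjusted p = 0.054). The deviations of same-numbered libraries correlated between -0.306 and 0.295, so the numbers were not treated as pairs. Fold changes of low genes and counting error cannot be judged without depth.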

Other observations

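Linked genes that stayed within 2-fold as deposited are named here after their values were seen. Smox, the spermine oxidase, rose from 17.9 ± 2.49 TPM in medium to 33.1 ± 2.36 TPM in stimulated cells and stood at 29.1 ± 0.436 TPM in TRAIL-treated cells (mean ± SD, n = 3). Its log2 fold change was 0.85 with stimulation and 0.67 for TRAIL-treated cells against medium (limma adjusted p = 6.9e-05 and 1.9e-03), whereas -0.18 between TRAIL-treated and stimulated cells did not pass the test (adjusted p = 0.19). The first difference passed 2-fold under another scaling, at 1.03 (median of ratios) and 1.02 (quantile), as did that of Amd2 (0.90 as deposited, then 1.07 and 1.16). Paox, the other tested oxidase of the list, held 5.26 to 5.97 TPM in medium, 6.02 to 6.18 TPM after stimulation and 3.88 to 5.04 TPM with TRAIL, and its difference of 0.097 with stimulation did not pass the test (adjusted p = 0.48) except after quantile normalization (0.42, adjusted p = 5.1e-03), whereas it fell by 0.39 from stimulated to TRAIL-treated cells (limma adjusted p = 0.012). Dohh, the hydroxylase that completes hypusine, rose from 46.5 ± 3.30 to 80.1 ± 0.978 TPM with stimulation and was at 41.8 ± 1.01 TPM with TRAIL, while Dhps, the enzyme of the step before, held 55.3 ± 7.05, 54.2 ± 3.11 and 46.8 ± 1.60 TPM and did not pass the test in any comparison, although the difference between TRAIL-treated cells and medium did without medium replicate 1 (-0.34, adjusted p = 0.038). Mat2a, which makes S-adenosylmethionine, held 198 ± 9.38, 191 ± 11.9 and 180 ± 7.86 TPM and did not pass either, and Mat2b, its regulatory subunit, fell from 137 ± 15.4 to 76.9 ± 7.43 TPM with stimulation and was at 101 ± 3.43 TPM with TRAIL.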
